A study of Mus musculus with 24 samples.

Results

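Interferon response genes are the genes that cells switch on when they sense an interferon or foreign nucleic acid. They were followed here in the RPE (retinal pigment epithelium), a sheet of dark cells behind the photoreceptors that digests the disc tips they shed. The 39 genes were taken by symbol from a fixed list, out of 54532 genes in the count table. That list was set with earlier results of these data known, the rise at 5 h included. RNA-seq read counts were available for wild-type mice of the strain labelled 129S1/SvlmJ, which carry the Leu450 form of Rpe65, the retinoid isomerase of the visual cycle. All animals were kept on a standard diet in a 12 h light cycle, and light came on at 7 in the morning. Groups of 3 mice gave RNA 0, 1, 3, 5, 6, 9, 15 and 16 h after the light came on. Every mouse was sampled once, so the series joins different animals, and the 2 latest times fall in the dark phase of a 12 h light and 12 h dark day. The labels name no infection, drug or interferon treatment in any group, and give neither the age of the mice nor how the RPE was separated from its neighbours.

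Type I interferons bind a receptor made of IFNAR1 and IFNAR2, whose kinases JAK1 and TYK2 act on STAT proteins. These join IRF9 in a complex named ISGF3, which binds the interferon-stimulated response element (ISRE) and switches on antiviral genes, among them IRF7, which extends the response, and USP18, which dampens it. Interferon gamma acts through the gamma-activated site (GAS) and is known in RPE cells for raising the antigen-presentation genes.

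The 24 libraries held 14073440 to 17492470 counts each, of which 10809 to 19268 fell on the 39 genes. All 39 passed the filter on low counts, and the rarest, Zbp1, had 588 counts over all libraries. The RPE label was checked with 8 markers (Rpe65, Rlbp1, Rdh5, Best1, Ttr, Lrat, Mertk and Otx2), all detected at every time, with a summed level at 0 h of 24005 to 28160 CPM (counts scaled to a library size of 1000000). Markers of other cells were detected too, since at 0 h 16 macrophage and microglia markers summed to 2150 to 2365 CPM and 8 rod markers to 2121 to 3430 CPM. The 9 fibroblast and mural cell markers summed to 2202 to 2410 CPM, and 5 genes listed for melanocytes to 5117 to 5712 CPM. In such bulk samples fewer cells of a type and less RNA per cell cannot be told apart. The first principal component carried 38.2% of the variance and set a pair of libraries apart: mouse 3 of 15 h lay farthest out and mouse 3 of 6 h came next. The summed RPE markers reached 90521 CPM in the first and 40295 CPM in the second, and 5 red blood cell markers reached 8767 and 3326 CPM, against 1925 CPM or less elsewhere. Counts of members that passed are therefore given for all 24 libraries and for the 22 without this pair. Changes and adjusted p of most single genes are printed for the 22 only.

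The sequences around the start sites were read first, since the ISRE and GAS are where the factors of the pathway bind. RefSeq promoter windows (build GRCm38.p6, 250 bases before to 50 after a start) were matched by symbol for 30 of the 39 genes, with no entry matched for Mx2, Zbp1, Dhx58, Oas2, Usp18, Rtp4, Parp14, Ifi27 and Parp9. The ISRE core was searched as GAAA, any 2 bases and GAAA again, and on the other strand as TTTC, any 2 bases and TTTC. It lay in a window of 14 of the 30 genes, and in 42.9% of their 35 windows, against 3.44% of all 32851 windows. The GAS core, searched as TTCNNNGAA, which reads the same on both strands, lay in 8 of the 30 genes and in 22.9% of their windows, against 8.3% of all windows. A single ISRE match overlapped a GAS match. The stretches below belong to the members that rose at 5 h against 0 h in 22 libraries and hold an ISRE match before the start. Each is written 5′ to 3′ on the gene's own strand with the ISRE matches in capitals.
Oas1a: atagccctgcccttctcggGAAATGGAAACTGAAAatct
Ifit3: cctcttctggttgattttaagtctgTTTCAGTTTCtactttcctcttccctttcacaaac
Isg15: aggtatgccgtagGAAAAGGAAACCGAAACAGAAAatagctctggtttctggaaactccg
Bst2: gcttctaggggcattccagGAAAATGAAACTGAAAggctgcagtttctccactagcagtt
Gbp3: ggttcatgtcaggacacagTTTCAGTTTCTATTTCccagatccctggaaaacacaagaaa
The Oas1a stretch is chr5:120907526-120907564 on the minus strand and holds 2 overlapping matches. The Ifit3 stretch is chr19:34583382-34583441 on the plus strand. The Ifit3 window holds 2 matches. The match that begins 156 bases before the start is cut off by the edge of the stretch and is not capitalised. The Isg15 stretch, chr4:156200850-156200909 on the minus strand, holds 3 overlapping matches. The Bst2 stretch is chr8:71537562-71537621 on the minus strand, and the Gbp3 stretch is chr3:142559980-142560039 on the plus strand, each with 2 overlapping matches. Ifih1 and Eif2ak2, which also rose, have their match after the start. A match is a description of these letters, not a site or a cause, and no match says only that the letters are not in this window. In 22 libraries the 14 genes with an ISRE match had a median log2 change at 5 h of 0.45, all 14 positive, and the 16 without had a median of 0.09, with 10 positive. Of the 14, 7 passed as higher, and of the 16, 5 did, namely Irf9, Irf7, Oasl2, Xaf1 and Ifi44. The 16 also hold Psmb8, Psmb9 and Tap1, which were negative. Genes with no window are in neither group, and of these Rtp4, Usp18, Oas2, Mx2 and Ifi27 also passed as higher. The members were chosen with the rise at 5 h known, so this split describes them, and its link to the rise was not tested. The 459 other tested genes with a match had a median of −0.01, and 7 of them passed as higher. Of the 12214 other tested genes without a match, 200 passed as higher. For the GAS the 8 genes with a match had a median of 0.29, with 6 positive and 3 passing, and the 22 without had 0.36, with 18 positive and 9 passing. Among the other tested genes, 24 of 1045 with a GAS match and 183 of 11628 without passed as higher.

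At 5 h after light onset the interferon response genes stood above their level at light onset. Relative to the mean of 0 h, the median log2 difference over the 39 genes was 0.41 in mouse 1, 0.40 in mouse 2 and 0.36 in mouse 3 of 5 h, while the median over all genes tested lay within 0.01 of 0 in each. By 6 h the medians were −0.19 and −0.20 in mice 1 and 2 and −0.04 in mouse 3. At 9 h they were 0.09, 0.17 and 0.20. No mouse of another time reached the lowest mouse of 5 h. The nearest was mouse 3 of 0 h at 0.22.

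**Figure D1:**
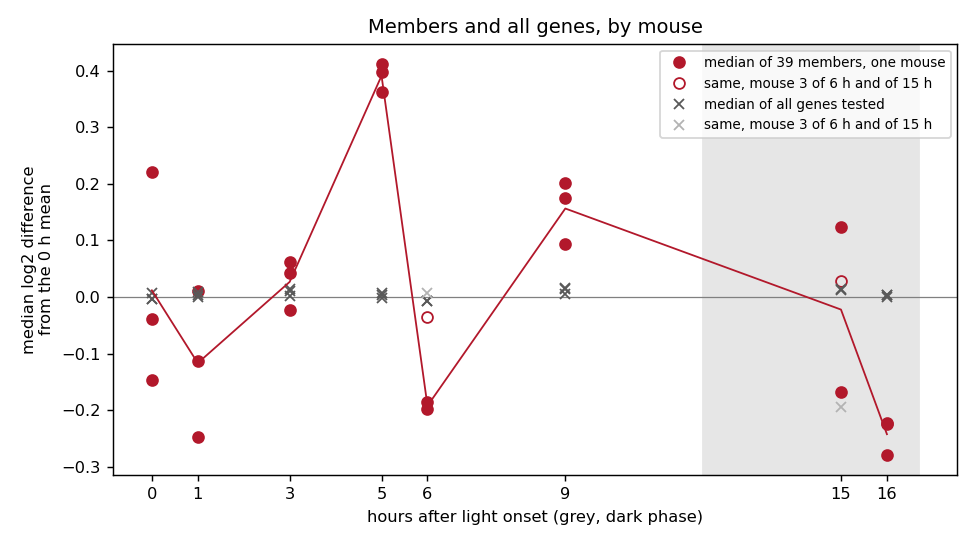
Median log2 difference from the 0 h mean over the 39 genes (red circles, 1 per mouse; open for mouse 3 of 6 h and of 15 h) and over all genes tested (crosses), by hours after light onset. The line joins the means of the filled circles, and the 3 mice of 5 h lie between 0.36 and 0.41, above every other mouse.

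The test of 5 h against 0 h was edgeR's quasi-likelihood test with Benjamini-Hochberg adjustment over all genes tested, and a gene passed at an adjusted p under 0.05. The members were chosen with the rise at 5 h known, so the counts below describe it and are no independent support. In 24 libraries the fitted change was positive for 33 of 39 genes with a median of 0.35, against −0.01 over all genes. Only Rtp4 passed (1 of 39), where 0.0775% of all genes tested passed as higher. In the 22 libraries 17 of 39 passed, all higher, where 1.64% of all genes passed as higher, and the median was 0.36. The 17 were Irf9, Irf7, Ifih1, Isg15, Usp18, Oas1a, Oas2, Oasl2, Ifit3, Bst2, Xaf1, Rtp4, Eif2ak2, Mx2, Ifi27, Ifi44 and Gbp3. In 24 libraries the edgeR adjusted p of these 17 ran from 0.0336 for Rtp4 to 0.975 for Bst2. The same 3 mice of 0 h and 3 of 5 h are in both fits. The count of 17 dropped to 6 or 8 on leaving out mouse 1 or mouse 2 of 0 h, and to 7 on leaving out either mouse 1 or mouse 2 of 5 h. Ranked by mouse, all 3 mice of 5 h lay above all 3 of 0 h for 24 of 39 genes, against 10.6% of all genes, and below for 0 of 39, against 10.3%.

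**Figure D2:**
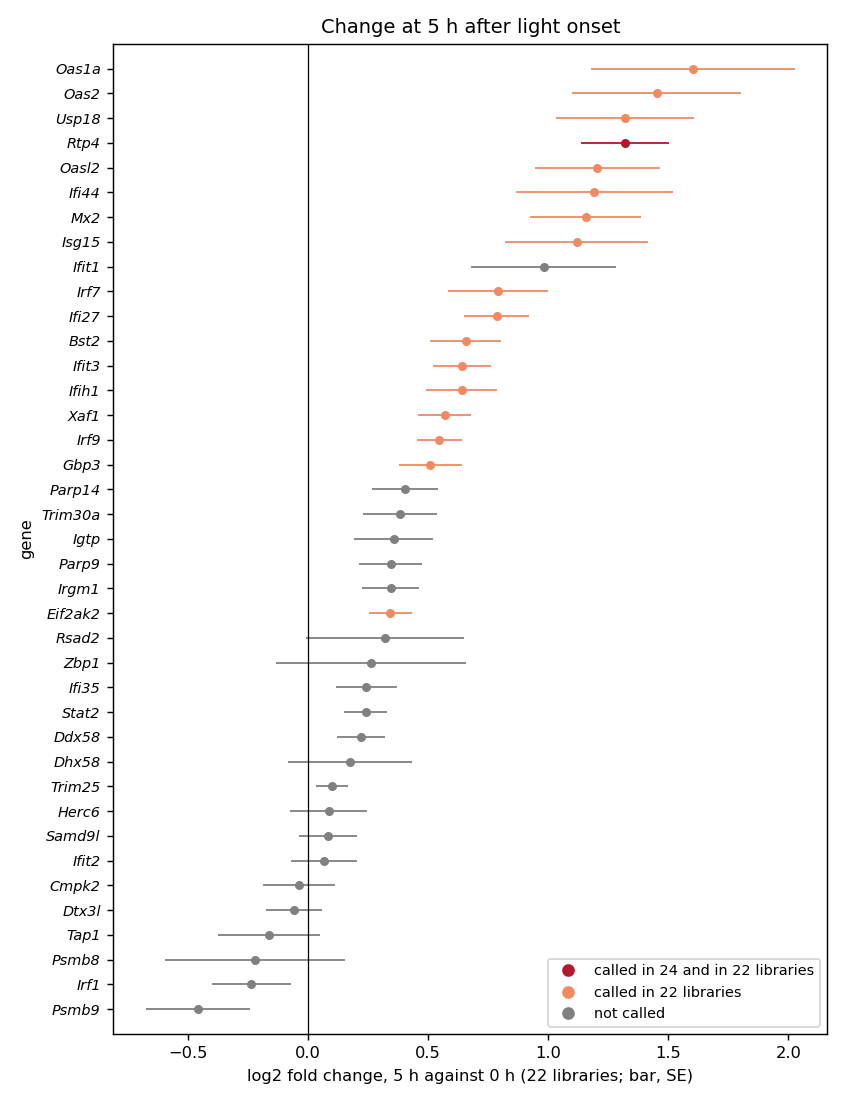
Log2 fold change of 5 h against 0 h for each of the 39 genes in 22 libraries (points, edgeR; bars, SE), coloured by whether the gene passed in 24 and in 22 libraries. The values run from 1.60 for Oas1a to −0.46 for Psmb9.

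Among the direct antiviral effectors, Rtp4, a chaperone of receptor proteins that also restrains RNA viruses, had the smallest p. Its levels were 6.05, 5.41 and 6.45 CPM at 0 h, 5.39, 6.63 and 5.38 at 3 h, and 17.3, 15.9 and 11.5 at 5 h. They were then 5.50, 5.09 and 6.11 at 6 h and 6.94, 9.71 and 8.36 at 9 h. The 3 mice of 5 h were above all 21 other libraries, mouse 3 of 5 h being the lowest of them, and the 6 h values overlapped those of 0 h. The mean went from 5.97 ± 0.523 (SD, n = 3) to 14.9 ± 3.01 CPM (SD, n = 3). The log2 fold change was 1.32 ± 0.24 (SE), with an adjusted p of 0.0336 by edgeR in 24 libraries and 0.000113 in 22. In 24 libraries the call was lost on leaving out any 1 mouse of 0 h, mouse 1 or mouse 2 of 5 h, or the third mouse of 9 h, with adjusted p of 0.0503 to 0.196. The gene, at chr16:23520291-23614222, shares 13.9% of its exonic bases with the predicted gene Gm45338.

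The 2′-5′-oligoadenylate synthetases make the messenger that activates RNase L, and Oasl2 is a relative of theirs. Oasl2 (chr5:114896936-114912234) was at 10.3, 11.6 and 12.6 CPM at 0 h, 8.16, 15.9 and 10.4 at 3 h, and 28.0, 27.2 and 24.3 at 5 h. It was at 9.15, 8.36 and 8.5 CPM at 6 h and at 13.4, 17 and 20.0 at 9 h. The mice of 5 h lay above all 21 other libraries, those of 6 h below all of 0 h, and those of 9 h above all of 0 h. The change at 5 h was 1.20 ± 0.28 (SE, log2), with an edgeR adjusted p of 0.109 in 24 libraries and 0.0149 in 22. Oas2 (chr5:120730333-120749853) was rarer, at 2.52, 1.80 and 3.19 CPM at 0 h, 2.39, 3.45 and 5.04 at 3 h and 8.32, 6.87 and 5.43 at 5 h. It stood at 2.43, 3.14 and 0.882 CPM at 6 h and at 1.38, 4.26 and 2.83 at 9 h. Its 5 h mice were again above all other libraries, by little over mouse 3 of 3 h. The change at 5 h was 1.45 ± 0.35 (SE, log2, 22 libraries), adjusted p 0.0213 by edgeR.

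Oas1a (chr5:120896256-120907521), with 766 counts in all, had the highest fold change of the members at 5 h. It was at 1.02, 0.935 and 1.22 CPM at 0 h, 1.5, 2.12 and 2.04 at 3 h, and 3.80, 3.90 and 1.99 at 5 h. At 6 h it was at 1.41, 1.82 and 1.64 CPM and at 9 h at 0.875, 3.67 and 3.59. Mouse 3 of 5 h fell inside the 3 h range, and 2 mice of 9 h were just below the upper mice of 5 h. Its change at 5 h was 1.60 ± 0.42 (SE, log2, 22 libraries), adjusted p 0.0365 by edgeR. Reads of this gene could be shared with its near copies in the Oas1 cluster, as those of Ifit3 with Ifit3b and those of Ifi27 with Ifi27l2a, and the authors' handling of such reads is not given in the sources used here.

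Mx2, an antiviral dynamin-like GTPase (chr16:97535308-97560900), was at 2.52, 3.21 and 3.49 CPM at 0 h, 3.72, 4.73 and 5.15 at 3 h and 6.83, 6.44 and 7.24 at 5 h. It was at 3.33, 3.21 and 3.97 CPM at 6 h and at 6.38, 3.38 and 6.12 at 9 h. The 5 h mice lay above all mice of these times, with 2 mice of 9 h just below them, and all 3 h mice lay above all of 0 h. The change at 5 h was 1.16 ± 0.23 (SE, log2, 22 libraries), adjusted p 0.00446 by edgeR. Ifi44, an interferon-induced protein (chr3:151730922-151749960), was at 1.80, 3.41 and 3.02 CPM at 0 h, 1.83, 3.90 and 2.44 at 3 h and 6.71, 5.94 and 6.09 at 5 h. At 6 h it was at 2.43, 2.14 and 2.58 CPM and at 9 h at 2.44, 3.20 and 4.53. The mice of 5 h were close together and above all of 0, 3, 6 and 9 h. The change at 5 h was 1.19 ± 0.33 (SE, log2, 22 libraries), adjusted p 0.0447 by edgeR.

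The IFIT proteins bind foreign RNA, and their genes lie side by side on chromosome 19. Ifit1 (chr19:34640871-34650009) was at 9.71, 9.95 and 13.2 CPM at 0 h, 7.44, 11 and 11.4 at 3 h, and 22.3, 24.8 and 17.7 at 5 h. It was at 8.19, 8.68 and 11.7 CPM at 6 h and at 9.69, 11.4 and 15.2 at 9 h. All mice of 5 h were above all of the other light-phase times, yet the change of 0.98 ± 0.30 (SE, log2, 22 libraries) missed the threshold, with an edgeR adjusted p of 0.0981. Against the mean of the other 7 times it passed, at 1.1 ± 0.21 (SE, log2) and an adjusted p of 0.0127. Ifit3 (chr19:34583531-34588731), more abundant, was at 50.1, 62.5 and 72.3 CPM at 0 h, 70.0, 66.1 and 69.3 at 3 h and 99.5, 104 and 84.5 at 5 h. It was at 61.9, 78.4 and 82.2 CPM at 6 h and 71.3, 67.0 and 84.3 at 9 h. The lowest mouse of 5 h lay just above the highest of 9 h. Its change at 5 h was 0.64 ± 0.12 (SE, log2, 22 libraries), adjusted p 0.00372 by edgeR. Ifit2, the neighbour of Ifit3, did not pass, at 17.8 to 19.3 CPM in the mice of 5 h and 15.8 to 18.9 CPM in those of 0 h, and its fitted change was 0.07.

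Xaf1, a zinc-finger protein that promotes cell death (chr11:72301629-72313733), was at 39, 42.6 and 36.4 CPM at 0 h, 37.2, 41.8 and 44.8 at 3 h and 56.5, 63.9 and 54.1 at 5 h. It was at 31.5, 36.8 and 31.1 CPM at 6 h and at 40.9, 44.3 and 43.7 at 9 h. The 5 h mice were above all libraries but mouse 3 of 15 h, which stood at 64.2 CPM. Its change at 5 h was 0.57 ± 0.11 (SE, log2, 22 libraries), adjusted p 0.00346 by edgeR. Ifi27, Bst2 (tetherin, which holds budding virus at the cell surface) and Eif2ak2 (PKR, which stops translation on double-stranded RNA) rose by 0.79, 0.66 and 0.34 (log2, 22 libraries). Of the 18 effectors 17 had a positive change at 5 h, with a median of 0.65, and 11 passed in 22 libraries. Cmpk2, a mitochondrial nucleotide kinase, was the exception at −0.04. Those that did not pass were Ifit1, Ifit2, Rsad2, Cmpk2, Samd9l, Ifi35 and Trim30a.

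Among the transcription factors, Irf9 (chr14:55603571-55610030), the DNA-binding subunit of ISGF3, was at 29.0, 30.2 and 37.7 CPM at 0 h, 34.1, 30.8 and 30.8 at 3 h and 49.6, 47.7 and 44.0 at 5 h. It was at 31.1, 30.0 and 34.8 CPM at 6 h and at 36.5, 38.2 and 38.8 at 9 h. The mice of 5 h were above all 21 other libraries and those of 6 h were back within the 0 h range. Its change at 5 h was 0.55 ± 0.09 (SE, log2, 22 libraries), with an edgeR adjusted p of 0.00127, and 0.0541 in 24 libraries. Irf7, the factor that extends the response, was at 8.27, 10.9 and 12.5 CPM at 0 h, 20.3, 17.1 and 17.3 at 5 h and 5.88, 6.10 and 8.38 at 6 h. Its mice of 5 h were above all others but mouse 3 of 15 h, at 34.1 CPM, and the 2 lower mice of 6 h were below all of 0 h. It rose by 0.79 ± 0.21 (SE, log2, 22 libraries), adjusted p 0.0353 by edgeR. Stat2, the partner of IRF9, had 39.6 to 48.0 CPM in the mice of 5 h and 36.2 to 38.6 in those of 0 h, a change of 0.24 that did not pass. Irf1, which acts early in the interferon gamma response, had 19.8 to 23.8 CPM in the mice of 5 h, inside the 19.1 to 32.4 CPM of 0 h, and a change of −0.24 that did not pass.

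The sensors detect viral nucleic acid inside the cell. Ifih1 (chr2:62595798-62646255), which encodes MDA5, was at 10.4, 14.3 and 11.5 CPM at 0 h, 11.9, 13.1 and 13.4 at 3 h and 20.4, 19.4 and 16.5 at 5 h. It was at 13.4, 11.8 and 11.5 CPM at 6 h and at 15.5, 12.3 and 13.4 at 9 h. The 3 mice of 5 h were above all 21 other libraries. Its change at 5 h was 0.64 ± 0.15 (SE, log2, 22 libraries), adjusted p 0.0155 by edgeR. Ddx58 (RIG-I), Dhx58 (LGP2) and Zbp1 did not pass, with changes of 0.22, 0.17 and 0.26. The 5 h mice of Zbp1 spread from 1.66 to 3.44 CPM around the 1.40 to 2.90 CPM of 0 h.

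ISG15 is a ubiquitin-like tag, and USP18 removes it and also blocks the type I receptor. Usp18 (chr6:121245906-121270917) was at 2.34, 2.07 and 4.41 CPM at 0 h, 3.94, 4.46 and 3.51 at 3 h and 7.43, 8.79 and 5.91 at 5 h. It was at 2.43, 3.21 and 2.83 CPM at 6 h and at 3.50, 3.67 and 4.83 at 9 h. The 5 h mice were above every mouse of 0, 3, 6 and 9 h. The change at 5 h was 1.32 ± 0.29 (SE, log2, 22 libraries), adjusted p 0.0102 by edgeR. Isg15 (chr4:156199424-156200818) was at 1.5, 2.00 and 3.02 CPM at 0 h, 2.05, 4.29 and 2.61 at 3 h and 5.23, 4.08 and 4.89 at 5 h. It was at 1.66, 2.20 and 4.09 CPM at 6 h and at 4, 3.14 and 5.36 at 9 h. The mice of 5 h lay above all of 0 h but overlapped those of 3, 6 and 9 h, and mouse 3 of 9 h was the highest of all these. Its change at 5 h was 1.12 ± 0.30 (SE, log2, 22 libraries), adjusted p 0.0373 by edgeR. Herc6, the mouse ligase for ISG15, and Trim25, a ubiquitin ligase for RIG-I, did not pass, at 0.09 and 0.10.

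PARP9 and DTX3L form an ADP-ribosylation and ubiquitin-ligase complex, and PARP14 is a further PARP induced by interferon. Parp14 (chr16:35832874-35871544) was at 14.4, 19.6 and 20.7 CPM at 0 h, 18.0, 20.7 and 20.2 at 3 h and 25.5, 23.1 and 23.7 at 5 h. It was at 15.3, 15.3 and 15.7 CPM at 6 h and at 23.2, 19.2 and 20.5 at 9 h. The 5 h mice were above those of 0, 3 and 6 h, and mouse 1 of 9 h reached the lower end of their range. Its change against 0 h, 0.40 ± 0.14 (SE, log2, 22 libraries), did not pass, with an edgeR adjusted p of 0.12. Its excess over the other 7 times, a comparison chosen with the rise at 5 h known, passed in 22 libraries but not in 24. That excess in 22 was 0.48 ± 0.10 (SE, log2), with an edgeR adjusted p of 0.0133. Parp9 was at 18.6 to 20.6 CPM in the mice of 5 h, above all 21 other libraries, and did not pass. Dtx3l had a change of −0.06. The genes of Parp9 and Dtx3l overlap head to head and share 9.4% and 8% of their exonic bases, and the kit does not mark strand, so their reads cannot be fully told apart.

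The interferon-inducible GTPases act on vacuoles that hold pathogens. Irgm1 (chr11:48861968-48871683) was at 23.7, 23.8 and 26.3 CPM at 0 h, 24.7, 23.1 and 25 at 3 h and 34.4, 30.4 and 28.7 at 5 h. It was at 24.8, 21.8 and 26.1 CPM at 6 h and at 25.3, 28.0 and 29.1 at 9 h. The lowest mouse of 5 h was just under the highest of 9 h. Its change of 0.34 ± 0.12 (SE, log2, 22 libraries) did not pass, with an edgeR adjusted p of 0.131. Its excess over the other times, a comparison chosen with the rise at 5 h known, passed in 22 libraries but not in 24. That excess in 22 was 0.35 ± 0.09 (SE, log2), with an edgeR adjusted p of 0.0407. Gbp3 rose by 0.51 ± 0.13 (SE, log2, 22 libraries), with an adjusted p of 0.0327 by edgeR, and Igtp, at 0.36, did not pass. Of the antigen-processing members, Psmb8 and Psmb9, subunits of the immunoproteasome, and Tap1, the peptide transporter, had fitted changes of −0.22, −0.46 and −0.16 at 5 h, none of which passed. Their values at 0 h were uneven, since mouse 3 of 0 h had 17.1 CPM of Psmb8 while mouse 1 had 4.26.

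**Figure D3:**
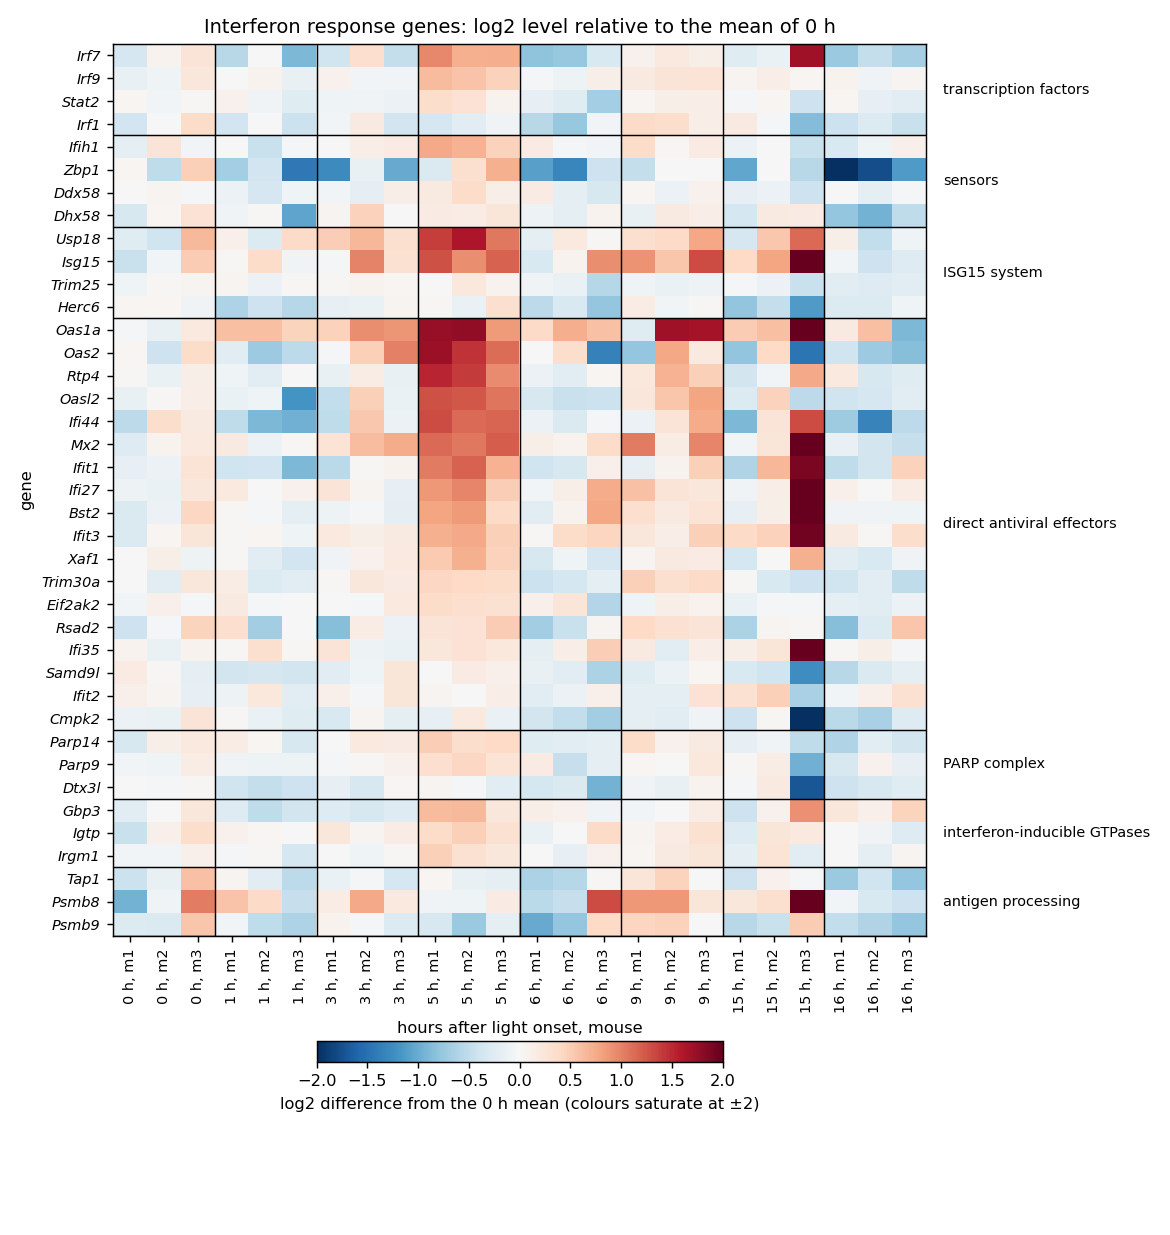
Log2 difference from the 0 h mean (colour, saturating at 2 in either direction) for the 39 genes (rows, grouped by role) in the 24 mice (columns, by hours after light onset). The 3 columns of 5 h are red for most effectors and for Usp18, Isg15, Irf7 and Irf9, and not for the 3 antigen-processing genes, and mouse 3 of 15 h holds values of both extremes.

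How early the level rose was asked by setting 5 h against 3 h. In 24 libraries the change was positive for 34 of 39 genes with a median of 0.36, and Rtp4 alone passed, 1 of 39 where 0.0277% of all genes passed as higher. In 22 libraries 11 of 39 passed, all higher, where 1.2% of all genes did. They were Irf9, Irf7, Oasl2, Ifih1, Ifit3, Bst2, Xaf1, Rtp4, Ifi27, Ifi44 and Gbp3. On leaving out mouse 1 or mouse 3 of 3 h the 11 became 5 or 6, and on leaving out mouse 1 or mouse 2 of 5 h they became 3 or 6. All 3 mice of 5 h lay above all of 3 h for 23 of 39 genes, against 9.98% of all genes. For 1 h and for 3 h against 0 h, 0 of 39 genes passed by edgeR in 24 or in 22 libraries, where 0.0111% and 0% of all genes passed in 24 and 0.337% and 0.299% in 22. At an unadjusted p under 0.05 there were 1 and 0 members in 24 libraries, the 1 being lower, where 3.94% and 3.05% of all genes had such a p. In 22 libraries all 7 such members at 1 h were lower, against 13.1% of all genes in either direction, and at 3 h there were 2, Mx2 higher and Gbp3 lower, against 10.3%. DESeq2 called 0 and 0 members in 24 libraries and 1, lower, and 0 in 22. All comparisons with 0 h use the same 3 libraries of 0 h.

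The next time sampled, 6 h, had lower levels than 5 h. In 22 libraries, with 2 mice at 6 h, the change from 5 h to 6 h was negative for all 39 genes, with a median of −0.51 against 0.00 over all genes. It passed for 4 of 39, all lower, where 0.0435% of all genes did: Rtp4, Irf7, Xaf1 and Irf9. Irf7 fell by 1.60 ± 0.25 (SE, log2), adjusted p 0.00758 by edgeR, and Rtp4 fell by 1.49 ± 0.21 (SE, log2), adjusted p 0.00586. Xaf1 fell by 0.76 ± 0.12 (SE, log2), adjusted p 0.00976, and Irf9 fell by 0.62 ± 0.11 (SE, log2), adjusted p 0.0128. Only 8 genes in the whole table passed from 5 h to 6 h, and the other 4 were Ifitm3, Ifi27l2a and Lgals3bp, which are also interferon-stimulated, and Ifi44l, named here after its value was seen. With all 24 libraries 0 of 39 members and 0% of all genes passed by edgeR, while 37 of 39 were negative. There 23 members, all lower, had an unadjusted p under 0.05, against 3.65% of all genes, and DESeq2 called 5 members, all lower, among 11 of all genes. The 4 became 0 when either mouse of 6 h was left out, the lone mouse then being assumed to vary like the other groups, and 2 when mouse 2 of 5 h was left out. The 3 mice of 5 h lay above all 3 of 6 h for 28 of 39 genes, against 6.13% of all genes, and above mice 1 and 2 of 6 h for 38 of 39, against 12.3%.

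Against 0 h, no member passed as higher at 6 h. In 24 libraries edgeR called 0 of 39, where 0.166% of all genes passed; 3, all lower, had an unadjusted p under 0.05, against 8.96% of all genes, and DESeq2 called 0. In 22 libraries Psmb9 alone passed, 1 of 39, lower by 0.95 ± 0.25 (SE, log2; adjusted p 0.0455), where 0.886% of all genes passed as lower. That call rests on 2 mice at 6 h and was lost on leaving out either of them, the third mouse of 0 h, the first of 3 h, 5 h or 9 h, or mouse 1 or 2 of 15 h or 16 h. Leaving out mouse 2 or 3 of 3 h gave 2 members, mouse 2 of 1 h gave 3 and mouse 1 of 0 h gave 4. A single gene, Oas1a, had all 3 mice of 6 h above all of 0 h, 1 of 39 against 8.07% of all genes. Below all of 0 h lay all 3 mice of 6 h for 5 of 39, against 9.88% of all genes, and mice 1 and 2 for 13 of 39, against 17%.

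At 9 h the level was between those of 0 h and 5 h for many members. From 5 h to 9 h, 33 of 39 genes were lower, with a median of −0.22, and in 22 libraries 4 of 39 passed as lower, where 1.37% of all genes did. Rtp4 fell by 0.84 ± 0.18 (SE, log2; adjusted p 0.0158 by edgeR) and Oas2 fell by 1.28 ± 0.35 (SE, log2; adjusted p 0.0467). Gbp3 fell by 0.48 ± 0.13 (SE, log2; adjusted p 0.0469) and Xaf1 fell by 0.43 ± 0.11 (SE, log2; adjusted p 0.0332). The 6 that were not lower were Irf1, Dtx3l, Trim30a, Psmb8, Psmb9 and Tap1. In 24 libraries edgeR called 0 of 39 members and 0% of all genes, 11 members had an unadjusted p under 0.05 (9 lower, and Irf1 and Psmb9 higher), against 6% of all genes, and DESeq2 called 0. The 4 became 0 when mouse 1 or 2 of 5 h or the first mouse of 9 h was left out. Leaving out mouse 2 of 0 h or of 9 h, either mouse of 6 h or the first of 16 h gave 2. Leaving out mouse 1 or mouse 3 of 0 h gave 7 or 8. All 3 mice of 5 h lay above all of 9 h for 20 of 39 genes, against 13.5% of all genes.

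Set against 0 h, 33 of 39 genes were positive at 9 h, with a median of 0.17. In 22 libraries Oas1a (1.36 ± 0.43, SE, log2; adjusted p 0.0496 by edgeR) and Mx2 (0.79 ± 0.23, SE, log2; adjusted p 0.0355) passed, 2 of 39, where 3.61% of all genes passed as higher. That share is near the background. The 2 became 0 when the first or second mouse of 0 h or the third of 9 h was left out, and 8 when the third of 0 h was. They became 1 on leaving out any mouse of 1 h, the third of 3 h, mouse 1 or 2 of 5 h, of 6 h or of 15 h, or the first of 9 h or 16 h. In 24 libraries edgeR called 0 members, where 0.747% of all genes passed, although 4, all higher, had an unadjusted p under 0.05, against 9.62% of all genes, and DESeq2 called 0. Mice 1, 2 and 3 of 9 h lay above all of 0 h for 12, 12 and 20 of 39 genes, against 31.3%, 30.1% and 28.9% of all genes, and all 3 did so for 6 of 39, against 12.9%.

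In the dark phase the medians over the members were −0.17 and 0.12 in mice 1 and 2 of 15 h, and −0.22, −0.28 and −0.22 in the 3 mice of 16 h. At 16 h 32 of 39 genes were negative, and in 22 libraries Zbp1 passed, 1 of 39, lower by 1.83 ± 0.45 (SE, log2; adjusted p 0.0289 by edgeR), where 0.859% of all genes passed as lower. That call was lost when the third mouse of 0 h or the first or second of 16 h was left out, and 2 members passed when the first of 0 h was. All 3 mice of 16 h lay below all of 0 h for 10 of 39 genes, against 9.88% of all genes. In 24 libraries edgeR called 0 at 16 h, where 0.116% of all genes passed, 6, all lower, had an unadjusted p under 0.05, against 5.74%, and DESeq2 called 1. For 15 h against 0 h edgeR called 0 members in 24 and in 22 libraries, where 0.41% and 1.41% of all genes passed. At an unadjusted p under 0.05 there were 10 in 24 libraries, 8 higher and 2 lower, where 25.8% of all genes had such a p. In 22 libraries there were 5, 2 higher and 3 lower, against 15.4% of all genes. DESeq2 called 7 members, 5 higher and 2 lower, and 1873 of all genes in 24 libraries, and 0 members in 22.

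All 3 mice of 5 h shared the rise, though not to the same height. They are the only group of that time, so the hour cannot be told apart from anything else these mice had in common. Above the mean of 0 h stood 34 genes in mouse 1, 33 in mouse 2 and 34 in mouse 3. For 31 of 39 genes all 3 mice were above that mean, against 27.1% of all genes, and for 2, Irf1 and Psmb9, all 3 were below, against 25.9%. Mixed signs were seen for Dtx3l, Zbp1, Cmpk2, Psmb8, Tap1 and Herc6. Mice 1, 2 and 3 of 5 h lay above all of 0 h for 27, 28 and 29 genes, against 26.6%, 26% and 26.1% of all genes. Each on its own lay above all 19 libraries of the other times, leaving out the pair that stood apart, for 23, 23 and 17 genes, against 4.32%, 4.45% and 4.05% of all genes. Mouse 3 of 5 h was the lowest of the 3 for 23 of 39 genes, against 34.3% of all genes. Its median over the effectors was 0.48, where mice 1 and 2 had 0.74 and 0.81, while over the sensors it had 0.35 against 0.17 and 0.34.

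**Figure D4:**
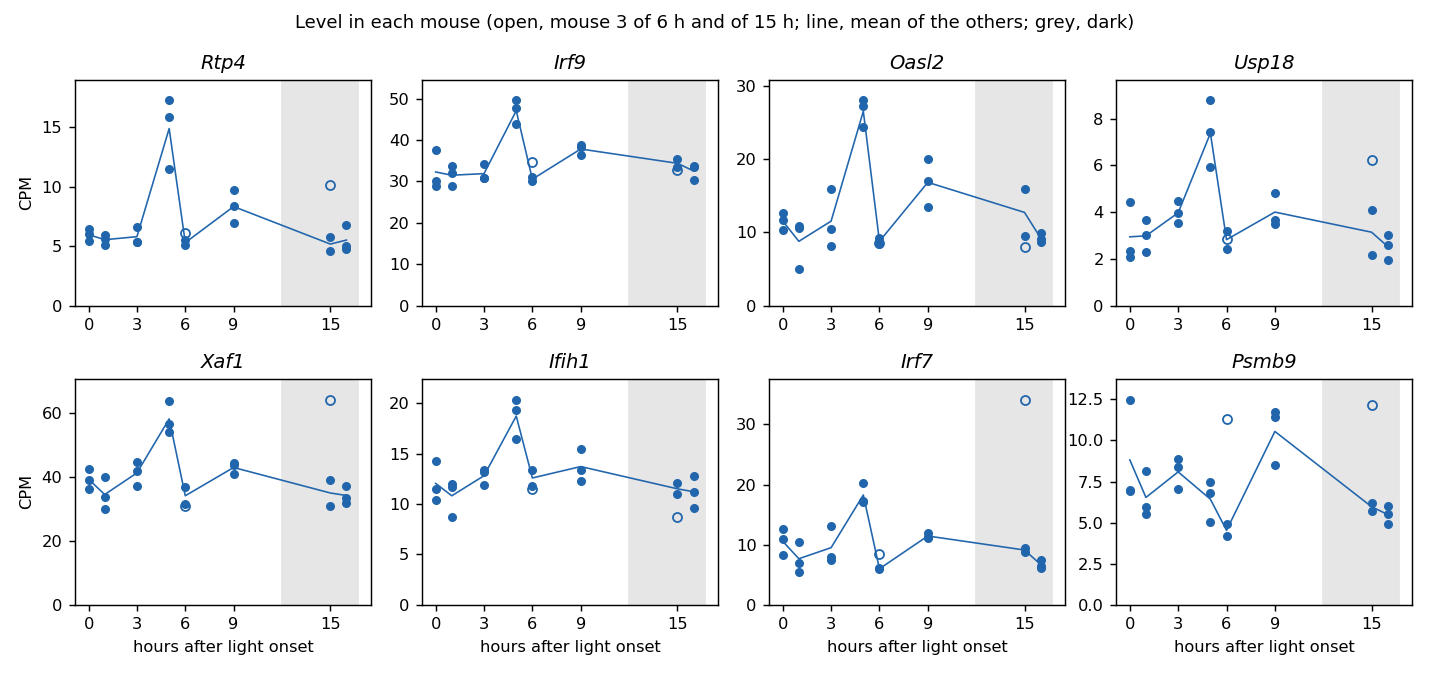
Level in CPM (vertical axis from 0) of 8 members by hours after light onset, with a point per mouse, open for mouse 3 of 6 h and of 15 h, and a line through the means of the others. For 7 of the 8 the mice of 5 h lie above those of 0, 3, 6 and 9 h, and Psmb9 has its highest mean at 9 h.

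Also chosen with the rise at 5 h known was a comparison of 5 h with the unweighted mean of the 7 other times. In it 36 of 39 genes were higher at 5 h in 24 libraries, with a median of 0.44. There 4 of 39 passed, all higher, where 0.0554% of all genes did: Rtp4, Oasl2, Irf9 and Ifih1. In 22 libraries 21 of 39 passed, all higher, where 0.925% of all genes did. Rtp4 had a difference of 1.34 ± 0.12 (SE, log2; adjusted p 1.05e-06 by edgeR), Oasl2 of 1.26 ± 0.18 and Xaf1 of 0.65 ± 0.08. Leaving out mouse 1, 2 or 3 of 5 h turned the 4 into 0, 0 or 1, and leaving out mouse 1 or 3 of 15 h turned them into 7 or 16. The 21 became 11 or 12 when mouse 1 or 2 of 5 h was left out. The mean of 5 h was the highest of the 8 times for 25 of 39 genes in 24 libraries, against 10.8% of all genes, and for 30 in 22 libraries, against 9.98%. In 22 libraries 5 members had their highest mean at 9 h, namely Irf1, Trim30a, Psmb8, Psmb9 and Tap1, and Ifit2 and Dtx3l had it at 15 h, Dhx58 at 3 h and Cmpk2 at 0 h. The 3 mice of 5 h exceeded every one of the 21 other libraries for 7 genes (Irf9, Oasl2, Oas2, Ifih1, Parp9, Rtp4 and Eif2ak2), against 0.188% of all genes, and the 19 others without the pair apart for 14, against 0.293%. Over all 8 times 4 of 39 genes passed in 24 libraries (Rtp4, Oasl2, Irf9 and Trim30a), where 1.08% of all genes did, and 27 in 22 libraries, where 15.6% did. With single libraries left out of the 24, the count over time ran from 0 (the first mouse of 5 h) to 17 (the first or the third of 15 h).

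Mouse 3 of 15 h carried its own pattern on the members. It had 516 CPM of Ifi27, 246 of Bst2, 232 of Ifit3 and 82.9 of Ifi35, where the highest of the other 23 libraries had 191, 93.5, 104 and 26.7. It had 1.44 CPM of Cmpk2 and 4.23 of Dtx3l, where the lowest of the others had 9.32 and 7.31. Relative to 0 h the 39 members ranged in this library from −3.28 (log2) for Cmpk2 to 2.44 for Psmb8, with a median of 0.03, while the median over all genes there was −0.19.

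Per kilobase of the gene length in the deposited table, the most abundant members over 22 libraries were Ifi27 at 77.1, Bst2 at 62.1 and Ifit3 at 41.5 mean CPM per kilobase. The least abundant were Zbp1 at 0.43 and Ifi44 at 0.47. The 6 members with the largest changes at 5 h, Oas1a, Oas2, Usp18, Rtp4, Oasl2 and Ifi44, lay at 0.47 to 3.39 CPM per kilobase.

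Other genes of the pathway were taken from lists of 154 non-members. The interferons themselves were close to absent: of 21 ligand genes none passed the filter, 17 had 0 counts in all 24 libraries, which allows up to 3 counts or 0.00771 CPM over all of them, and Ifng, Ifnz, Ifnab and Ifnb1 had 7, 5, 2 and 1 counts in total. This limit covers counting error only. The receptor genes did not pass at 5 h against 0 h in 22 libraries, with changes of −0.08 for Ifnar1, 0.23 for Ifnar2, 0.16 for Ifngr1 and −0.05 for Ifngr2.

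Of 125 pathway genes tested in 24 libraries 2 passed at 5 h, both higher, where 0.0775% of all genes did. Lgals3bp, a secreted galectin-binding protein, had levels of 196, 210 and 227 CPM in the mice of 0 h and of 378, 421 and 332 in those of 5 h. At 6 h the levels were 260, 247 and 226 CPM, and 9 h gave 266, 231 and 243. Its 5 h mice were above every mouse of these times. It rose by 0.84 ± 0.12 (SE, log2, 24 libraries), adjusted p 0.00359 by edgeR, and Ifit3b by 0.62 ± 0.12, adjusted p 0.0432. In 22 libraries 5 of 127 passed, all higher, where 1.64% of all genes passed as higher, the others being Ifi27l2a at 1.31, Slfn5 at 0.49 and Parp12 at 0.34. Among the other interferon-stimulated genes 54 of 78 were positive with a median of 0.23, while among the class I presentation genes 3 of 14 were positive with a median of −0.05 and 0 passed by edgeR (1 at an unadjusted p under 0.05). From 5 h to 9 h 12 of those 14 were positive, with a median of 0.35. The pathway genes with the largest fitted changes at 5 h, besides Ifi27l2a, were Ifit1bl1 at −2.11, Slfn4 at 1.69, Ifitm1 at −1.41 and H2-Q6 at −1.16 (log2, 24 libraries). None of these 4 passed, and their mice within a time differed widely, as Ifit1bl1 shows with 12.3, 20.7 and 7.61 CPM at 0 h and 2.08, 1.05 and 6.28 at 5 h.

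Markers of other cells were read beside the rise, and their part in it was not tested. The 16 macrophage and microglia markers summed to 2130 to 2472 CPM at 5 h, overlapping 0 h, and 9 of 16 were positive with a median of 0.02. They summed to 2635 to 3063 CPM at 9 h, where 3 of the 16 passed as higher against 0 h in 22 libraries, against 3.61% of all genes. The 5 plasmacytoid dendritic cell markers summed to 61.6 to 74.9 CPM at 5 h, below the 76.6 to 87.1 CPM of 0 h. Most of that sum was Tcf4, with a mean of 80.2 CPM at 0 h and 66.2 at 5 h. The means of Siglech (2.17 and 2.56 CPM), Ccr9 (0.544 and 0.668) and Klk1 (0.0400 and 0.0602) were higher at 5 h. That of Ly6d was lower (0.418 and 0.160). The 6 dendritic cell markers summed to 62.8 to 76.1 CPM at 5 h, overlapping the 53.0 to 75.4 of 0 h, and to 88.4 to 109 at 9 h. The 10 lymphocyte markers summed to 10.4 to 12.8 CPM at 5 h and 21.5 to 22.2 at 0 h, with all 10 negative. The 8 rod markers were negative too, at 498 to 1871 CPM at 5 h. The 9 fibroblast and mural cell markers summed to 1934 to 2176 CPM at 5 h, below the 2202 to 2410 of 0 h. Pdgfrb and Acta2 were positive, at 0.03 and 0.05 (log2, 22 libraries), and the rest negative. The 5 genes listed for melanocytes summed to 4858 to 4965 CPM at 5 h, below the 5117 to 5712 of 0 h. Most of that sum was Dct, with a mean of 3436 CPM at 0 h and 3075 at 5 h. Sox10 was positive, at 0.07 (log2, 22 libraries), and the rest negative, from −0.15 for Pmel to −0.57 for Kit. The 9 endothelial markers overlapped, at 447 to 661 CPM at 5 h and 468 to 743 at 0 h. RPE markers summed to 29103 to 32274 CPM at 5 h, above 0 h, and 2 of the 8, Lrat and Mertk, passed as higher in 22 libraries, against 1.64% of all genes. Most of that sum was Ttr, with a mean of 15067 CPM at 0 h and 16879 at 5 h. Best1 and Otx2 were negative, at −0.05 and −0.14 (log2, 22 libraries), and the rest positive. Of these lists, Klk1 of the plasmacytoid dendritic cell markers had 0 counts at 1, 3 and 9 h and 15 counts in all, and every other marker was detected at each time.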

How the data were processed

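RNA-seq of RPE total RNA was analysed from 24 mice, 3 at each of 8 times. The authors deposited raw counts of reads per gene in a single table with a column per mouse; HTSeq, STAR and the build mm10 are named in the submitters' processing notes, and their roles, versions, settings and the annotation release are not given in the sources used here. Per the labels' protocols, libraries were made with NEBNext Ultra, which does not mark strand. Overlap of exons was checked in GENCODE vM21 (GRCm38): all 39 genes were found by identifier and 16 share exonic bases with another gene.

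Genes were filtered with filterByExpr (minimum count 10 over the time groups), leaving 18065 genes in 24 libraries and 18388 in 22, scaled by TMM and tested with edgeR 4.0.16 (glmQLFit, robust, glmQLFTest) in R 4.3.3, with a mean per time and no covariate. There were 12 comparisons per fit, and Benjamini-Hochberg adjustment ran over all genes tested. The SE of a fold change was derived as its absolute log2 value divided by the square root of the test's F statistic. Levels are CPM (counts scaled to a TMM-adjusted library size of 1000000), and log2 differences of single mice use a prior count of 2. The labels give the mice of a time as biological replicates, and the lowest chi-square per degree of freedom between libraries of a time was 6.13, so none was a copy. Alternatives were the 22 libraries, RLE scaling, DESeq2 1.42.0, other filters, a replicate block, only the times compared, and leaving out each library; DESeq2 and the leave-one-out fits on 22 libraries were added after seeing the data. The scripts were tested on simulated data.

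The members and lists were chosen with earlier results of these data known, the rise at 5 h included. Members given in full were the 15 with the smallest p at 5 h against 0 h among those passing any comparison, plus the 6 largest changes with a mean of at least 1 CPM. Of the pathway genes, 4 receptors, those passing at 5 h and the 5 largest changes are named, and some items are not reported here.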

Additional observations from a re-analysis of the deposited data

How the results depend on the processing

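The limits below concern how many members passed. Shares of all genes are not set beside the counts in this section. The counts therefore show how the number of members moved, not how members compare with all genes. Fitted changes of single members at 6 h and 15 h could differ in sign between 24 and 22 libraries, as for Irf7 at 15 h against 0 h (0.71 and −0.22) and Psmb8 at 6 h against 0 h (0.15 and −0.73), none of which passed. The 22 libraries gave 27 over time, 17 at 5 h, 1 at 6 h, 2 at 9 h and 1 at 16 h against 0 h, 11 at 5 h against 3 h, 4 at 6 h and 4 at 9 h against 5 h, and 21 at 5 h against the other times. DESeq2 on 24 libraries called 18 over time, 5 at 5 h, 7 at 15 h and 1 at 16 h against 0 h, 3 at 5 h against 3 h, 5 at 6 h against 5 h and 10 at 5 h against the other times. DESeq2 on 22 libraries, added after seeing the data, called 30 over time, 1 at 1 h, 18 at 5 h, 3 at 6 h, 3 at 9 h and 3 at 16 h against 0 h, 13 at 5 h against 3 h, 10 at 6 h and 14 at 9 h against 5 h, and 26 at 5 h against the other times. With no filter on low counts 2 passed over time, 0 at 5 h against 3 h and 2 at 6 h against 5 h, and with at least 1 CPM in 3 libraries 2 passed at 5 h against 0 h. With only the libraries of the times compared 14 passed at 5 h against 0 h, 8 at 5 h against 3 h, 1 at 6 h against 5 h and 10 at 9 h against 5 h, 2 of them higher. RLE scaling moved the median of all genes at 5 h from −0.0072 to −0.0088.

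Leaving out each of 24 libraries gave 0 to 17 members over time, 0 to 9 at 5 h and 0 to 9 at 15 h against 0 h, 0 to 7 at 5 h against 3 h, 0 to 6 at 6 h against 5 h and 0 to 16 at 5 h against the other times, and 0 in each other comparison. The 1 called at 5 h against 0 h became 9 when mouse 3 of 15 h was left out, 2 when mouse 3 of 6 h was, and 0 when mouse 1 or 2 of 0 h or 5 h or the third of 9 h was. The 1 called at 5 h against 3 h became 7 when mouse 3 of 15 h was left out. It became 0 when any mouse of 0, 1, 3 or 16 h, mouse 1 or 2 of 5 h or the third of 6 h or 9 h was. For 15 h the 0 became 9 or 8 when its mouse 1 or 2 was left out, and 1 when mouse 3 of 6 h was. For 6 h against 5 h the 0 became 6 when mouse 3 of 15 h was left out, and 1 when the first mouse of 15 h or the third of 1 h was. The 4 called over time became 17, 12 or 17 when mouse 1, 2 or 3 of 15 h was left out, 0, 1 or 2 when mouse 1, 2 or 3 of 5 h was, and 2 when any mouse of 9 h or 16 h, mouse 2 or 3 of 3 h or mouse 2 of 6 h was. Leaving out each of the 22, added after seeing the data, gave 22 to 29 over time, 6 to 18 at 5 h, 0 to 4 at 6 h, 0 to 8 at 9 h, 0 to 1 at 15 h and 0 to 2 at 16 h against 0 h, 3 to 13 at 5 h against 3 h, 0 to 6 at 6 h and 0 to 8 at 9 h against 5 h, and 11 to 23 at 5 h against the other times. The cause was not tested.

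The labels number the mice within each time and do not say that a number joins them. With the replicate number as a block, 2 passed over time, 0 at 5 h against 0 h, 0 at 5 h against 3 h and 3 at 5 h against the other times in 24 libraries. In 22 the block gave 27, 17, 12 and 20, with 4 at 6 h and 3 at 9 h against 5 h, 0 at 6 h, 1 at 9 h and 1 at 16 h against 0 h. Deviations of same-numbered libraries correlated at 0.05 on average, from −0.28 to 0.32, and 10 of 18 libraries correlated best with their own number.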
